A study of Mus musculus with 20 samples.

Results

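Fcgr1, Fcgr2b, Fcgr3, Fcgr4, Fcer1g, Tyrobp, Trem1, and Syk encode receptors for antibody, the adaptors that signal for them, a receptor that borrows such an adaptor, and the kinase that reads the adaptors. These 8 genes were chosen by symbol, with earlier results of these data known. Every array probe that carried 1 of the symbols was used. This gave 9 probes of 55681 and 8 genes of the 32053 gene names on the array. Only Syk had a second probe. The RNA came from the hemidiaphragm of C57Bl/6 females, and 5 groups of 4 mice with 1 array per mouse gave 20 arrays. All mice received a single injection into the pleural cavity at 8 weeks of age and were examined 12 weeks later. The control group received the vehicle, 0.5% BSA in saline. SFA was short-fiber amosite asbestos, in which 3.1% of fibers reached 5 µm, and LFA was amosite enriched for long fibers, in which 100% did. Both were given at 25 µg per mouse, and the short and long carbon nanotubes NTS and NTL at 5 µg per mouse, all in the vehicle. SFA was ground from the same asbestos as LFA. The groups were made to ask how the pleural lining responds to fibers of different length, and the tissue was not sorted: each array holds muscle, mesothelium, and whatever cells gathered on them.

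Fc receptors bind the constant end of antibodies and let phagocytes, mast cells, and natural killer cells recognise antibody-coated targets. In the mouse, Fcgr1, Fcgr3, and Fcgr4 are activating receptors for IgG that have no signaling motif of their own and pair with the common gamma chain Fcer1g, whereas Fcgr2b carries an inhibitory motif and restrains them. Tyrobp (also called DAP12) is a sister adaptor used by Trem1, Trem2, and other myeloid receptors. Both adaptors carry the immunoreceptor tyrosine-based activation motif (ITAM), which recruits Syk when it is phosphorylated. Macrophages that engulf particles carry most of these proteins.

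Values are given as the log2 signal minus the 75th percentile of the same array, here called the log2 level, and can be compared between arrays for 1 probe but not between probes. The 75th percentile itself ranged from 292 to 991 signal units over the arrays, and control replicate 2 was the dimmest. Probes well above background on fewer than 4 of 20 arrays were left out, and 36920 were tested. All 9 member probes passed, and 8 of them were well above background on all 20 arrays, as were 25010 of all probes. No member was saturated. A change was called when limma gave an absolute log2 change of at least 1 with a Benjamini-Hochberg adjusted p under 0.05 over all tested probes. Liver transcripts, which the diaphragm should not make, stood high on 5 arrays (SFA replicate 2, LFA replicates 1 and 3, and NTS replicates 3 and 4), with a summed level of 1702 to 4767 times the array's 75th percentile against 20.8 to 458 on the other 15. The arrays lay on 3 slides that were each scanned on their own, and each group was spread over 2 or 3 of them.

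The probes are 60 bases long and their positions are those of the array files, on mouse build NCBI37. Fcgr2b (chr1:172890988-172891047), Fcgr4 (chr1:172959738-172959797), Fcgr3 (chr1:172984129-172984188), and Fcer1g (chr1:173159794-173159853) lie together, with their probes inside 268.9 kilobases of chromosome 1. Fcgr1 (chr3:96086839-96086898), Tyrobp (chr7:31200651-31202378), Trem1 (chr17:48385849-48385908), and Syk (chr13:52744088-52744147, with the second probe at chr13:52738924-52738983) lie elsewhere. The Tyrobp probe reaches over 1728 bases of the genome and so crosses an exon boundary, and the Fcgr3 probe starts 550 bases into its transcript. Fcgr3 and Fcgr2b are close relatives, and whether their probes tell them apart was not tested. Tyrobp was the adaptor called in every comparison of a long fiber with control or with its short counterpart. For these reasons the Fcgr3 and Tyrobp probe sequences, from the array files, are given:
Fcgr3: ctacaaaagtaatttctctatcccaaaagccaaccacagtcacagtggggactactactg
Tyrobp: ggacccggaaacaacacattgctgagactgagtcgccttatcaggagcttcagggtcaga
Fcgr2b was read by 10 spots per array, which were averaged, and the others by 1 spot. The Trem1 probe holds the triplet GTT 12 times in a row. Whether any probe also binds the transcript of a related receptor was not tested.

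The promoters of 7 of the 8 members were found in the RefSeq promoter table (build GRCm38.p6), and Tyrobp was the exception. They cover 250 bases before to 50 bases after each start, and Fcgr3 and Syk have 2 entries each. They were searched on both strands for GAGGAA, the core letters bound by the myeloid factor PU.1, which many macrophage genes use. The core was present in 5 of the 7 members (Fcgr1, Fcgr3, Fcgr4, Trem1, and the second Syk promoter) and absent from these windows of Fcgr2b and Fcer1g. Of all 27025 genes in the table, 31.3% held it. The 30 bases around each match are shown because all 3 activating receptors carry it on the same strand close to the start, with the core in capitals (TTCCTC is the core on the opposite strand):
Fcgr1: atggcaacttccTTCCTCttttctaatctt
Fcgr3: gagtccatttccTTCCTCtttttgtagttc
Fcgr4: aaggctatttacTTCCTCtcttctagtcaa
Trem1: attttcagagaaGAGGAAactgaggtccca
Syk: tgctgacactttGAGGAAaagccacttccc
The Fcgr1 window lies at chr3:96294007-96294036 on the minus strand, that of Fcgr3 at chr1:171059392-171059421 on the minus strand, and that of Fcgr4 at chr1:171018892-171018921 on the plus strand. The first base of the core lies 55, 6, and 22 bases before the start of Fcgr1, Fcgr3 (first entry), and Fcgr4, respectively, and 162 and 9 bases before that of Trem1 (chr17:48232565-48232594) and Syk (chr13:52596861-52596890). A match is a stretch of letters, and binding was not measured.

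Of the 3 activating antibody receptors, Fcgr1 and Fcgr4 rose with both long fibers and Fcgr3 with NTL. Fcgr4 had log2 levels of -2.25, -1.17, -2.52, and -2.15 in control replicates 1 to 4. The 4 LFA arrays read 0.30, 1.77, 0.65, and 1.51, and the 4 NTL arrays 1.03, 1.58, 1.14, and 2.18. Every long-fiber array was above every control array. Fcgr4 rose by 3.08 ± 0.53 log2 units in LFA (SE, 8.47-fold, limma adjusted p = 0.0039) and by 3.50 ± 0.53 in NTL (11.3-fold, adjusted p = 0.000627), the largest changes among the members. In bulk tissue, more cells that carry a transcript and more of the transcript per cell cannot be told apart.

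Fcgr1, the high-affinity IgG receptor, followed the same order. Its log2 levels were -2.54, -0.76, -3.12, and -2.21 in control, -0.60, 1.39, -0.08, and 0.99 in LFA, and 0.58, 1.28, -0.26, and 1.14 in NTL. The groups did not overlap, although control replicate 2 and LFA replicate 1 lay close together. Fcgr1 rose by 2.58 ± 0.52 log2 units in LFA (5.99-fold, adjusted p = 0.0106) and by 2.84 ± 0.52 in NTL (7.18-fold, adjusted p = 0.00268). With the control and LFA arrays fitted alone, the LFA change had an adjusted p of 0.0613 and was not called.

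Fcgr3, a low-affinity IgG receptor found on macrophages, neutrophils, mast cells, and natural killer cells, was called in NTL and not in LFA. Its control arrays read 0.27, -1.28, -0.06, and 0.38, and the NTL arrays read 2.45, 1.48, 2.71, and 2.48, above every control array. The rise in NTL was 2.45 ± 0.53 log2 units (5.47-fold, adjusted p = 0.0087). The LFA arrays read 1.76, 2.30, -0.02, and 1.94, so that LFA replicate 3 lay among the controls. The LFA change was 1.67 ± 0.53 (adjusted p = 0.0741), and without LFA replicate 3 it was 2.17 (adjusted p = 0.0228). LFA replicate 3 was also 1 of the 5 arrays high in liver transcripts, and the part of that in its low Fcgr3 was not tested.

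Fcgr2b, the inhibitory IgG receptor of B cells and myeloid cells, rose alongside the activating receptors. Its control arrays read 0.62, -1.28, 0.21, and 0.17. The LFA arrays read 2.99, 3.13, 1.52, and 3.95, and the NTL arrays 3.17, 3.23, 2.87, and 3.35, the tightest of all groups for this gene (SD 0.20, n = 4, against 0.83 in control). Fcgr2b rose by 2.97 ± 0.54 log2 units in LFA (7.84-fold, adjusted p = 0.00562) and by 3.22 ± 0.54 in NTL (9.35-fold, adjusted p = 0.00153). It was also the member with the largest change in a short-fiber group. The SFA arrays read 1.18, 0.74, 1.78, and 1.08, each above every control array, which held for 0.55% of tested probes. That SFA change was 1.27 ± 0.54 (95% confidence interval 0.14 to 2.39) and was not called (adjusted p = 0.998).

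**Figure D1:**
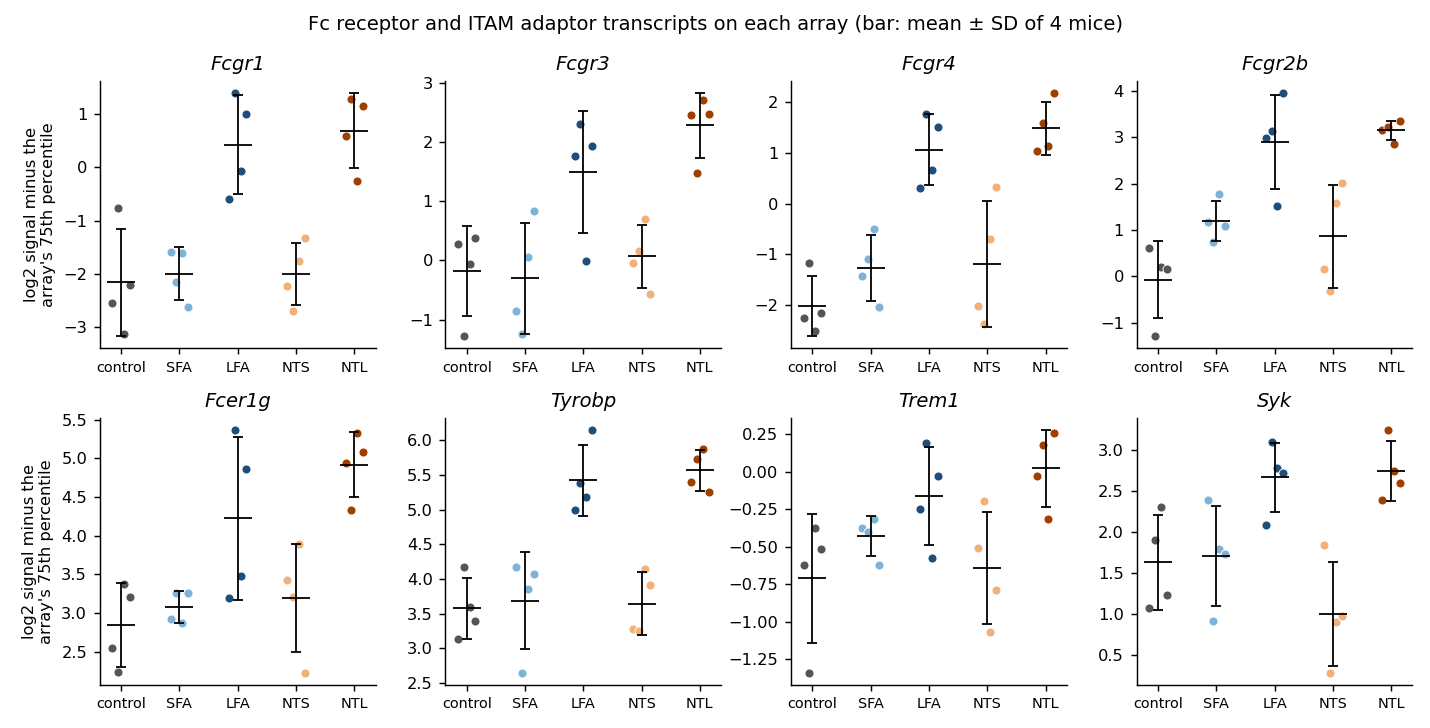
Log2 signal minus the array's 75th percentile (y axis) of the 8 genes on each of the 20 arrays, by group (x axis); each point is 1 mouse, and the black bar and whiskers are the mean and SD of 4 mice. LFA and NTL sit above control for Fcgr1, Fcgr4, Fcgr2b, and Tyrobp with no overlap, while Trem1 and Syk overlap between LFA and control.

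Both adaptors rose in NTL, and Tyrobp alone was called in LFA. Tyrobp read 3.14, 4.18, 3.60, and 3.40 in control, 4.99, 5.38, 5.18, and 6.15 in LFA, and 5.39, 5.74, 5.88, and 5.26 in NTL. All 8 long-fiber arrays were above all 12 others. The rise was 1.85 ± 0.35 log2 units in LFA (3.59-fold, adjusted p = 0.00838) and 1.99 ± 0.35 in NTL (3.97-fold, adjusted p = 0.00235). Fcer1g, the common gamma chain on which the activating receptors depend, rose by 2.07 ± 0.45 in NTL (4.21-fold, adjusted p = 0.00856), from 2.55, 2.24, 3.38, and 3.22 in control to 4.93, 4.33, 5.32, and 5.09. Its LFA arrays fell into a low pair and a high pair, 3.20 and 3.47 in replicates 1 and 3 and 5.37 and 4.86 in replicates 2 and 4. The low pair was within the control range or just above it. The LFA change of Fcer1g was 1.38 ± 0.45 (adjusted p = 0.0784). Replicates 1 and 3 were the LFA arrays high in liver transcripts, whose part in the split was not tested.

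Trem1 and Syk gave the smallest changes. The only Trem1 probe holds the triplet GTT 12 times in a row, and whether it reads other transcripts was not tested. Trem1, a receptor of neutrophils and monocytes that amplifies inflammatory signals through Tyrobp, read -0.62, -1.34, -0.37, and -0.51 in control, -0.25, 0.19, -0.57, and -0.03 in LFA, and -0.03, 0.18, -0.31, and 0.26 in NTL. Its changes were 0.55 ± 0.26 in LFA (adjusted p = 0.201) and 0.73 ± 0.26 in NTL (adjusted p = 0.0858), neither called, although every NTL array was above every control array. Syk, the kinase that both adaptors recruit, read 1.07, 1.91, 2.31, and 1.23 in control, 2.09, 3.10, 2.78, and 2.72 in LFA, and 2.40, 3.25, 2.74, and 2.60 in NTL. Its changes were 1.04 ± 0.38 in LFA (adjusted p = 0.109) and 1.12 ± 0.38 in NTL (adjusted p = 0.0759), just past 2-fold and not called. The NTL change of Syk crossed the threshold under quantile normalization, where it was 1.28 (adjusted p = 0.0364), and under normexp background correction, where it was 1.17 (adjusted p = 0.0464). The second, much dimmer Syk probe was well above background on every LFA and NTL array, on 1 NTS array, and on no control or SFA array. Against control it was higher by at least 1.68-fold in LFA and 1.66-fold in NTL, and was not called. These bounds are set by the lowest signals that were well above background. The probe passed the filter through its LFA and NTL arrays, so its higher level there was favored in advance and adds no support.

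Counted together, 4 of 8 members were called higher in LFA (Fcgr1, Fcgr2b, Fcgr4, and Tyrobp), beside 2.21% of all tested probes, and 6 of 8 in NTL (the same 4 with Fcgr3 and Fcer1g), beside 3.64%. No member was called lower in either. In LFA those 4 had every array above every control array, as had 4.56% of tested probes, and in NTL all 8 members did, beside 6.36%. The 2 comparisons share the control arrays. The 8 genes were chosen with earlier results of these data known, so these counts are a description and no independent support. The median log2 change of the members was 1.76 in LFA and 2.26 in NTL, and the median of all tested probes was -0.28 and -0.25. Scaling each array to its median in place of the 75th percentile gave 6 called members in LFA, with Fcgr3 and Fcer1g added.

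The short fibers at the same doses gave no call. In SFA the members' changes against control ran from -0.13 for Fcgr3 to 1.27 for Fcgr2b, with a median of 0.20, and in NTS from -0.63 for Syk to 0.93 for Fcgr2b, also with a median of 0.20. limma called 0% of all probes in both comparisons, and at an unadjusted p under 0.05 it gave 1 member (Fcgr2b) in SFA, beside 2.3% of probes, and 0 in NTS, beside 3.52%. The SFA arrays ran from -2.62 to -1.59 for Fcgr1, -1.24 to 0.84 for Fcgr3, 2.87 to 3.27 for Fcer1g, and 2.65 to 4.18 for Tyrobp. The NTS arrays ran from -2.69 to -1.33, -0.56 to 0.71, 2.23 to 3.89, and 3.25 to 4.14 for the same genes, so both groups overlapped control in each. Trem1 ran from -0.62 to -0.32 in SFA and from -1.07 to -0.20 in NTS, and Syk from 0.91 to 2.40 in SFA, again among the controls. The intervals of the receptors were wide: for Fcgr4 the 95% confidence interval was -0.35 to 1.86 in SFA and -0.27 to 1.94 in NTS. The NTS arrays split for Fcgr4, at -2.02 and -2.36 in replicates 1 and 2 and -0.70 and 0.32 in replicates 3 and 4, and for Fcgr2b, at 0.16 and -0.31 against 1.58 and 2.02. NTS replicates 3 and 4 shared a slide and were high in liver transcripts, and the part of either in this split was not tested. With the 5 arrays high in liver transcripts left out, a check added after the data were seen, the NTS changes of Fcgr4 and Fcgr2b were -0.17 and -0.0031.

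Long and short fibers of each material were also compared with each other, where the difference of means uses no control array and the error is that of all 20 arrays. For the nanotubes, 7 of 8 members were higher in NTL than in NTS, beside 4.92% of all tested probes, and Trem1 was the exception. The changes were 2.68 ± 0.52 for Fcgr1 (adjusted p = 0.00309), 2.67 ± 0.53 for Fcgr4 (adjusted p = 0.00368), 2.29 ± 0.54 for Fcgr2b (adjusted p = 0.0125), and 2.21 ± 0.53 for Fcgr3 (adjusted p = 0.0141). Tyrobp differed by 1.92 ± 0.35 (adjusted p = 0.00233), Syk by 1.75 ± 0.38 (adjusted p = 0.00697), and Fcer1g by 1.73 ± 0.45 (adjusted p = 0.0222). Trem1 differed by 0.66 ± 0.26 (adjusted p = 0.113). Syk was called in this contrast and not against control, and its NTS arrays, at 1.84, 0.28, 0.90, and 0.97, had the lowest group mean of the 5. With slide as a block, 3 members stayed called (Fcgr1, Fcgr4, and Tyrobp), and the adjusted p ranged from 0.0641 for Fcgr2b to 0.191 for Fcer1g among those lost. Only slide 2 held both groups, with 1 NTL and 2 NTS arrays, and there the 8 differences ran from 0.32 for Trem1 to 3.24 for Fcgr2b.

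For asbestos, 3 of 8 members were higher in LFA than in SFA, beside 1.03% of all tested probes. These were Fcgr1 at 2.42 ± 0.52 log2 units (adjusted p = 0.0247), Fcgr4 at 2.33 ± 0.53 (adjusted p = 0.035), and Tyrobp at 1.73 ± 0.35 (adjusted p = 0.0193), each with every LFA array above every SFA array, which held for 3.14% of tested probes. The differences of Fcgr3 (1.80 ± 0.53, adjusted p = 0.138), Fcgr2b (1.70 ± 0.54, adjusted p = 0.18), Fcer1g (1.15 ± 0.45, adjusted p = 0.292), Syk (0.96 ± 0.38, adjusted p = 0.294), and Trem1 (0.26 ± 0.26, adjusted p = 0.736) were not called. The 3 calls were lost with slide as a block, where the adjusted p was 0.103 for Fcgr1, 0.124 for Fcgr4, and 0.0647 for Tyrobp, and also when LFA and SFA were fitted alone or when SFA replicate 2, LFA replicate 2, or LFA replicate 4 was left out. Without SFA replicate 4, 1 call remained, and without LFA replicate 3 there were 5. Within the 2 slides that held both groups, the differences were 1.27 and 3.50 for Fcgr1, 1.57 and 3.04 for Fcgr4, and 1.41 and 1.58 for Tyrobp.

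**Figure D2:**
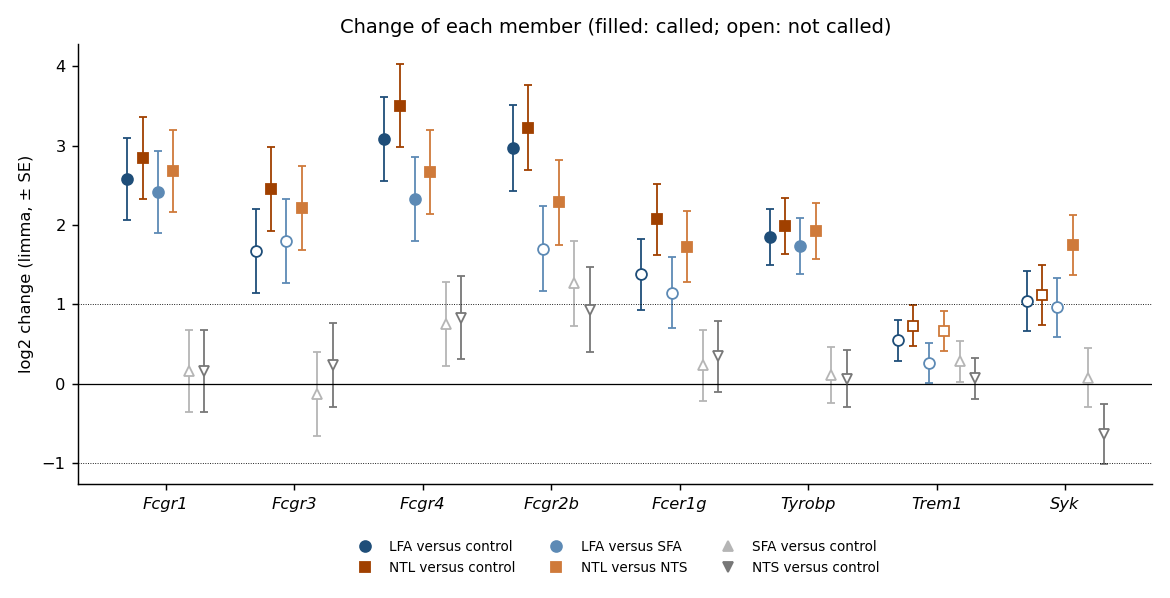
Log2 change of each gene (y axis, limma estimate ± SE) in 6 comparisons, with dotted lines at 1 and -1; filled symbols were called and open symbols were not. The changes of the long fibers against control and against the short fibers lie between 0.26 and 3.50, and the gray symbols of the short fibers lie between -0.63 and 1.27.

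LFA and NTL were given at different doses, so their levels stand side by side only. The NTL mean was above the LFA mean for all 8 members, by 0.08 log2 units for Syk to 0.78 for Fcgr3, and limma called 0% of probes between the groups. At an unadjusted p under 0.05, 0 members differed, beside 1.54% of probes. For Fcgr3 the 95% confidence interval of LFA minus NTL was -1.89 to 0.33, and for Tyrobp -0.89 to 0.60. The ranking of groups was the same at the top for every member, with NTL first and LFA second, and these neighbors overlapped in every case. Without the 5 arrays high in liver transcripts the LFA mean was the higher for every member but Fcgr3 (LFA minus NTL -0.16), by up to 0.50 for Fcgr1. LFA then held only replicates 2 and 4, while NTL kept all its arrays. The order of control, SFA, and NTS varied by gene and their ranges overlapped, except for Fcgr2b, where SFA lay wholly above control. The difference between the length effect of asbestos and that of nanotubes ran from -0.79 for Syk to -0.19 for Tyrobp, none called (0% of probes), and 0 members had an unadjusted p under 0.05, beside 3.46% of probes.

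On every slide that held both groups, all 8 members were above control in LFA and in NTL. In the 3 slides that held both LFA and control, the differences ran from 2.01 to 4.29 for Fcgr4, 1.05 to 4.50 for Fcgr1, 2.57 to 3.32 for Fcgr2b, and 1.33 to 2.27 for Tyrobp. In the 2 slides that held both NTL and control, they ran from 2.74 to 4.15 for Fcgr4 and from 2.28 to 2.96 for Fcgr3. With slide as a block, all 4 calls in LFA and all 6 in NTL were kept. With the 5 arrays high in liver transcripts left out, a check added after the data were seen, LFA kept only replicates 2 and 4. These read higher than LFA replicates 1 and 3 for every member but Syk. In that check 6 members were called in LFA, where Fcgr3 changed by 2.29 (adjusted p = 0.0273) and Fcer1g by 2.27 (adjusted p = 0.00471), and 6 in NTL.

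The change of each activating receptor was set against that of Fcgr2b on the same array. Whether the Fcgr3 and Fcgr2b probes read each other's transcript was not tested. In LFA, the change of Fcgr3 minus that of Fcgr2b had a mean of -1.30 ± 0.50 log2 units (SD, n = 4) against 0.00 ± 0.26 in control. This separated the groups fully, and the exact permutation p was 0.0286, the smallest that 4 against 4 allows. Adjusted over the 12 such tests it was 0.343. In NTL the difference was -0.77 ± 0.66 (exact permutation p = 0.0857, adjusted 0.514). SFA gave -1.40 ± 0.85 for the same pair, and the difference between LFA and SFA was 0.10 (exact permutation p = 0.886). Fcgr4 and Fcgr1 kept pace with Fcgr2b more closely, with mean differences of 0.11 and -0.39 in LFA and 0.28 and -0.38 in NTL, and no test of these fell under an exact permutation p of 0.171. The control arrays were widely spread for both pairs (SD 1.39 and 1.79), because control replicate 2 was high in Fcgr1 and Fcgr4 and low in Fcgr2b.

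**Figure D3:**
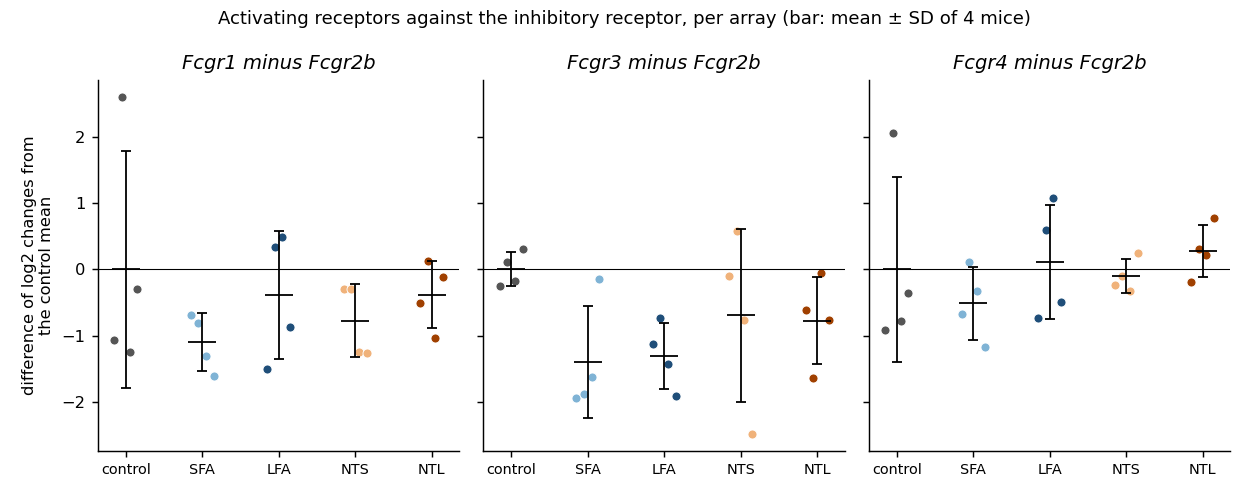
Change of Fcgr1, Fcgr3, or Fcgr4 minus the change of Fcgr2b on the same array, both from the control mean (y axis, log2 units), by group (x axis); each point is 1 mouse, and the bar and whiskers are the mean and SD of 4 mice. Fcgr3 minus Fcgr2b centers on -1.30 in LFA and on 0 in control. Fcgr1 minus Fcgr2b lies below 0 on all 4 SFA and all 4 NTS arrays, with means of -1.10 and -0.78. Control replicates 1, 3, and 4 also lie below 0 for this pair, at -1.07, -1.24, and -0.29, and replicate 2 lies at 2.61.

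The median correlation between members was higher within the long-fiber arrays than within the others. Over the 28 pairs of members, the Pearson r had a median of 0.09 within the 12 control, SFA, and NTS arrays (range -0.63 to 0.76) and of 0.53 within the 8 LFA and NTL arrays (range -0.15 to 0.88). With the group means removed, the median over 20 arrays was 0.17. Fcgr1 and Fcgr4 stayed closest, at 0.76 within the 12 arrays, 0.88 within the 8, and 0.81 with group means removed. Fcgr3 and Fcer1g gave 0.52, 0.76, and 0.60. Fcgr1 and Trem1 pointed apart in the 12 arrays (-0.63) and together in the 8 (0.85). Control replicate 2, the dimmest array, was the highest of the 12 for Fcgr1 (log2 level -0.76) and the lowest for Trem1 (-1.34). SFA replicate 2 and NTS replicates 3 and 4 in the 12, and LFA replicates 1 and 3 in the 8, were high in liver transcripts. The part of these arrays in the correlations was not tested. The correlations describe arrays that share slides and depth, and carry no test.

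Among 18425 other genes, those most like the mean of the 8 members over 20 arrays were Ms4a6d (r = 0.98), Cd84 (0.97), Gm7609 (0.97), Trem2 (0.97), Mefv (0.96), and Calca (0.96). Within the 12 control and short-fiber arrays their r ran from 0.12 for Calca to 0.90 for Gm7609, and within the 8 long-fiber arrays from 0.80 for Cd84 to 0.97 for Ms4a6d. The 12 and the 8 are parts of the 20 arrays by which these genes were picked, so high values were favored in advance. Calca, the gene of calcitonin and of a sensory neuropeptide, rose by 5.43 ± 0.63 log2 units in LFA (adjusted p = 0.000151) and by 6.85 ± 0.63 in NTL (adjusted p = 9.82e-06). Ms4a6d rose by 2.68 ± 0.34 and 3.08 ± 0.34.

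Each member had its own nearest genes. They were picked as the highest of 18425 by r over the 20 arrays, so high values were favored by that choice. For Fcgr3 they were C1qb (r = 0.99) and C1qa (0.97), chains of the first complement component. Their r was 0.96 and 0.91 within the 12 arrays and 0.97 and 0.96 within the 8, both parts of the same 20. For Fcgr1 they were Oas1a and E2f1 (both 0.97), and for Fcgr4 they were Zbp1 (0.97) and Oasl1 (0.95). For Fcgr2b they were Trp53inp1 and Slc41a2 (both 0.96), for Fcer1g Sh3bgrl3 (0.94) and Pqlc3 (0.93), and for Tyrobp Bcl2a1c (0.98) and Glipr1 (0.97). Syk was closest to Map4k1 (0.97) and Hmha1 (0.96), and Trem1 to Sall2 (0.91) and Mtmr11 (0.90), the lowest values of the set.

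The receptors that share the 2 adaptors were the group around the members with the largest changes. Of 20 listed partners of Fcer1g or Tyrobp, 17 were tested. In LFA 10 were called higher, beside 2.21% of all tested probes, and in NTL 10, beside 3.64%. None was called lower, and the median change was 2.07 and 1.91. Clec4n (Dectin-2), a Fcer1g-linked receptor for fungal sugars, rose by 4.46 ± 0.52 log2 units in LFA (adjusted p = 0.000151) and by 4.69 ± 0.52 in NTL (adjusted p = 5.56e-05). Clec4e (Mincle) rose by 4.03 ± 0.45 and 3.77 ± 0.45, and its neighbor Clec4d by 4.06 ± 0.47 and 3.65 ± 0.47. Trem2, a Tyrobp-linked lipid receptor of macrophages, rose by 3.53 ± 0.39 and 4.34 ± 0.39. In each of these 4 genes every LFA and NTL array was above every control array. From each of the 5 lists, the 4 genes with the largest mean change in LFA and NTL against control were picked. Their changes and separation from control were thus favored by that choice and are no independent support. All 4 were also called in LFA against SFA, from 3.13 for Clec4e to 3.65 for Clec4n, beside 1.03% of all tested probes called higher. In NTL against NTS all 4 were called, from 4.03 for Clec4d to 4.58 for Clec4e, beside 4.92%. These comparisons use the same long-fiber arrays.

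Inhibitory receptors and the phosphatases they recruit were split. Of 21 listed, 18 were tested. In LFA 7 were called higher, beside 2.21% of all tested probes, and in NTL 10, beside 3.64%. None was called lower, and the medians were 1.03 and 1.31. Lilrb4 rose by 2.72 ± 0.39 in LFA (adjusted p = 0.00101) and 3.12 ± 0.39 in NTL (adjusted p = 0.00015), and Cd72, an inhibitory receptor best known from B cells, by 2.28 ± 0.56 and 2.71 ± 0.56. Pilra rose by 1.89 ± 0.25 and 1.79 ± 0.25, and the collagen receptor Lair1 by 1.53 ± 0.35 and 1.80 ± 0.35. Ptpn6 (SHP-1), the phosphatase that these receptors recruit, was among those called in both, while Cd22 and Pecam1 were not called in either.

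Proteins that carry the ITAM signal inside the cell changed less. Of 30 listed, all were tested. In LFA 9 were called higher, beside 2.21% of all tested probes, and in NTL 15, beside 3.64%. None was called lower, and the medians were 0.92 and 1.29. Fgr, a Src family kinase of myeloid cells, rose by 1.85 ± 0.39 (adjusted p = 0.0135) and 2.06 ± 0.39 (adjusted p = 0.00339), and Prkcb, a protein kinase C, by 1.64 ± 0.41 and 1.81 ± 0.41. The adaptor Fyb changed by 1.68 ± 0.48 in LFA (adjusted p = 0.0527, not called) and rose by 1.59 ± 0.48 in NTL (adjusted p = 0.0493). Sh3bp2, an adaptor that binds Syk, changed by 1.83 ± 0.56 and 1.76 ± 0.56 and was called in neither (adjusted p = 0.0652 and 0.0603).

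Other antibody receptors and other ITAM chains gave few calls. Of 11 tested antibody receptors, 0 were called in LFA and 1 in NTL, beside 2.21% and 3.64% of all tested probes called higher. Their medians were 0.22 and 0.42. At an unadjusted p under 0.05 there were 2 in LFA and 1 in NTL, beside 24% and 23.5% of all tested probes. The 1 call was Fcrls, an Fc receptor-like protein of microglia and macrophages, at 1.60 ± 0.37 (adjusted p = 0.0123). Fcer1a, the IgE-binding chain of mast cells that pairs with Fcer1g, changed by 1.23 ± 0.46 in LFA (adjusted p = 0.122) and 0.72 ± 0.46 in NTL. Fcrl1 changed by 0.98 ± 0.70 and 1.15 ± 0.70, and Fcrla by 0.58 ± 0.45 and 0.80 ± 0.45. Of 11 other ITAM-related genes, 1 was called in both LFA and NTL, beside 2.21% and 3.64% of all tested probes called higher. This was Clec7a (Dectin-1), a receptor of macrophages that signals through Syk with a motif of its own. It rose by 3.09 ± 0.42 (limma adjusted p = 0.000657) and 3.58 ± 0.42 (adjusted p = 9.55e-05). Cd3d, a chain of the T cell receptor, changed by 1.28 ± 0.56 and 1.34 ± 0.56, Hcst by 1.32 ± 0.43 and 1.29 ± 0.43, and Zap70, the T cell relative of Syk, by 1.41 ± 0.70 and 0.80 ± 0.70, none called.

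**Figure D4:**
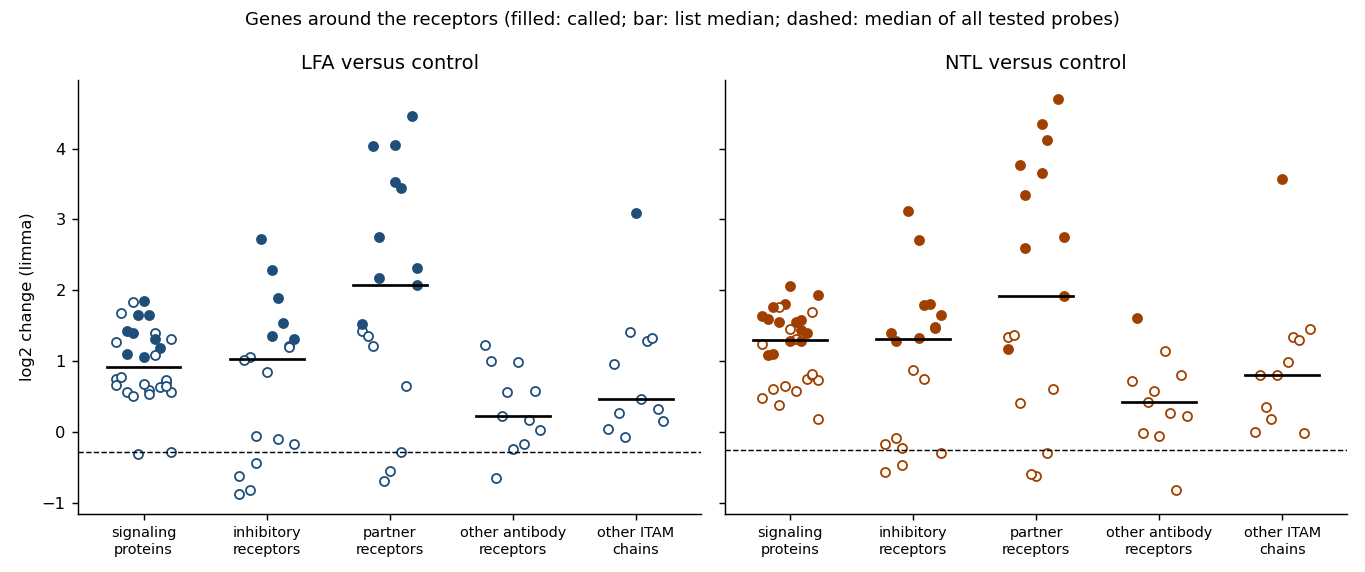
Log2 change (y axis, limma) of each tested gene of the 5 lists (x axis) in LFA and in NTL against control; filled points were called, the black bar is the median of the list, and the dashed line is the median of all tested probes (-0.28 and -0.25). Partner receptors reach the largest changes, up to 4.46 in LFA and 4.69 in NTL, and other antibody receptors stay mostly open.

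The members moved with macrophage markers. Of 11 macrophage markers, 7 were called higher in both LFA and NTL (Adgre1, C1qa, Cd14, Cd68, Csf1r, Marco, and Mrc1), beside 2.21% and 3.64% of all probes. Lyz2, Mertk, Itgam, and Cd163 were not called. All but Cd163 were well above background on every array. The summed macrophage level was 78.5 to 120 times the 75th percentile in control, 86.4 to 142 in SFA, and 74.6 to 140 in NTS, and 205 to 293 in LFA and 252 to 336 in NTL. The summed level of 8 skeletal muscle markers moved the other way. It was 3026 to 4629 in control, 1542 to 2156 in LFA, and 1457 to 1817 in NTL. Of these markers, 1 (Acta1) was called lower in LFA, beside 1.75% of all tested probes, and 2 (Myh1 and Tnnt3) in NTL, beside 3.16%. Neutrophil markers did not separate the groups: their sum was 114 to 210 in control, 131 to 199 in LFA, and 124 to 148 in NTL, and of 9 only Cxcr2 was called, in LFA. How much of the members' change goes with the number of macrophages was not tested.

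**Figure D5:**
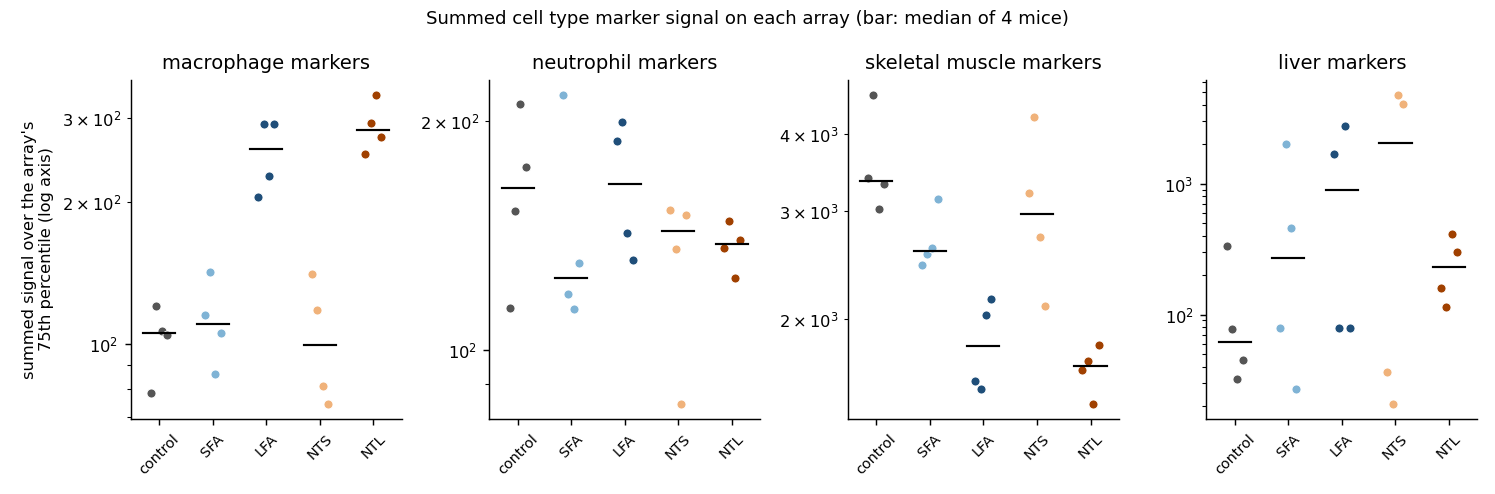
Summed signal of 4 marker lists divided by the array's 75th percentile (y axis, log scale) on each array, by group (x axis); points are mice and bars are medians of 4. Macrophage markers are at 205 to 336 in LFA and NTL against at most 142 elsewhere, muscle markers are lowest in LFA and NTL, and liver markers are at 1702 to 4767 on 5 arrays of 3 groups.

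Genes that lie among the receptors on chromosome 1 were also read. Between the outermost of the 4 member probes the array holds probes of 8 other named genes, and 7 were tested. None was called higher in any comparison, beside 2.21% of all tested probes in LFA and 3.64% in NTL against control. With shares this low, 7 probes cannot tell these genes from the rest of the array. Pcp4l1 was called lower in NTL (-1.12, limma adjusted p = 0.0367), beside 3.16% of all tested probes. Sdhc, a subunit of succinate dehydrogenase, changed by -0.95 in LFA (adjusted p = 0.104) and -0.98 in NTL (adjusted p = 0.0832), neither called.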

How the data were processed

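Total RNA of the hemidiaphragm was labeled with 1 dye and hybridized to Agilent 60K mouse arrays. The deposited scanner files hold intensity values per spot, from which Feature Extraction (version 10.7.3.1, per the file headers) had subtracted background. A table of log2 values that the authors normalized in GeneSpring holds 1 value per group and was used as an alternative without a test.

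Control spots and outlier spots (92 to 204 per array) were left out, spots of a probe were averaged, and log2 values were set relative to the 75th percentile of each array. limma (version 3.58.1, R 4.3.3) was fitted to all 20 arrays with a mean per group, and p-values were adjusted over 36920 probes. A gene was represented by its brightest probe. The 8 members, the lists, and the tests were chosen with earlier results of these data known. From each of 5 lists the 4 genes with the largest mean change in LFA and NTL were named, with the nearest genes by Pearson r (6 for the mean, 2 per member). All 8 member symbols were found in RefSeq's gene table.

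Replicate numbers did not pair the arrays (median r of deviations -0.09). Alternatives were quantile normalization, normexp background, other filters, averaging probes, median scaling, slide or replicate block, the compared groups alone, and each array left out; leaving out arrays high in liver transcripts was added after seeing the data. The fit was tested on simulated data, and the outcome of that test is not given here. With 4 arrays per group, precision is limited by their number.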

Additional observations from a re-analysis of the deposited data

Results flagged for a closer look

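No array stood far from the other 3 of its group for any member probe: by Dixon's criterion for 4 values, which chance passes in about 1 of 20 groups, 0 of 45 sets of 4 arrays stood out. No member's length effect differed between asbestos and nanotubes by the test of that difference.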

How the results depend on the processing

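The number of called members stayed within 1.5 times its value under every alternative in LFA against control (3 to 6), NTL against control (6 to 7), and, at 0 throughout, in SFA or NTS against control, LFA against NTL, and the difference of length effects. Leaving out single arrays gave 4 to 5 in LFA and 6 to 7 in NTL. For NTL against NTS, the count was 3 with slide as a block and 5 to 7 with single arrays left out. For LFA against SFA, it was 0 with slide as a block, 0 with only the groups compared, 5 without the arrays high in liver transcripts, and 0 to 5 with single arrays left out. The cause was not tested. Leaving out the arrays high in liver transcripts kept only replicates 2 and 4 of LFA and replicates 1 and 2 of NTS. The replicate block gave 2 members for LFA against SFA, where Fcgr4 had an adjusted p of 0.0502, and changed no other call; since the replicate numbers share only a name (every correlation of same-numbered arrays lay between -0.68 and 0.69, and 4 of 20 arrays matched their own number best), it is not read as a pairing. The test over the 5 groups that the methods name, which allows unequal variances, gave 6 members, beside 7 with limma. The authors' table kept the sign of every called change.

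No called change turned its sign. Changes that were not called did so as follows. In SFA against control, Syk was -0.0797 with probes averaged by gene and -0.0417 with slide as a block, and Fcgr3 was 0.18 without the arrays high in liver transcripts. In NTS against control, median scaling gave -0.00535 for Tyrobp and -0.00141 for Trem1, and leaving out the arrays high in liver transcripts gave -0.30 for Fcgr1, -0.00312 for Fcgr2b, -0.17 for Fcgr4, and -0.32 for Tyrobp. In LFA against NTL, slide as a block gave 0.17 for Syk, median scaling gave 0.0263 for Tyrobp and 0.0929 for Syk, and leaving out the arrays high in liver transcripts gave 0.50 for Fcgr1, 0.39 for Fcgr2b, 0.16 for Fcgr4, 0.20 for Fcer1g, 0.20 for Tyrobp, 0.0595 for Trem1, and 0.16 for Syk. For the difference of length effects, slide as a block gave 0.27 for Fcgr3, and leaving out the arrays high in liver transcripts gave 0.50 for Fcer1g and 0.14 for Trem1. With single arrays left out, 15 such changes crossed 0. In SFA against control these were Fcgr1 (-0.15 to 0.63), Fcgr3 (-0.51 to 0.18), Tyrobp (-0.0496 to 0.46), and Syk (-0.15 to 0.35). In NTS against control they were Fcgr1 (-0.16 to 0.62), Fcgr3 (-0.13 to 0.45), Tyrobp (-0.10 to 0.27), and Trem1 (-0.14 to 0.21). In LFA against NTL they were Fcgr1 (-0.58 to 0.081), Fcgr2b (-0.61 to 0.21), Tyrobp (-0.39 to 0.00213), and Syk (-0.22 to 0.12), and for the difference of length effects Fcgr1 (-0.59 to 0.0741), Fcgr3 (-0.73 to 0.0921), and Fcgr4 (-0.85 to 0.0506).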

Other observations

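Markers of other cells that carry these receptors were measured on the same arrays. The summed level of 6 dendritic cell markers was 2.63 to 5.04 times the 75th percentile in control, 4.11 to 10.3 in LFA, and 8.41 to 17.0 in NTL. Of 5 tested, 3 were called higher in NTL, beside 3.64% of all tested probes. These were Itgax at 2.47 log2 units (limma adjusted p = 0.00387), Ccr7 at 1.74, and Flt3 at 1.04. None was called in LFA, where 4 of 5 tested had an unadjusted p under 0.05, beside 24% of all tested probes. In each comparison 4 of 5 were above control, and the lowest change was -1.07 in LFA and -0.78 in NTL. Mast cell markers, which go with Fcer1a, overlapped in all groups, at 10.8 to 19.1 in control, 12.2 to 16.8 in LFA, and 8.52 to 16.8 in NTL, and Ms4a2 was not well above background on any array. B cell markers overlapped as well, at 12.5 to 39.5 in control, 17.7 to 38.9 in LFA, and 19.6 to 43.3 in NTL. Natural killer cell markers overlapped between the groups, at 0.511 to 1.29 in control, 0.859 to 1.54 in LFA, and 0.943 to 1.52 in NTL. Of 6 only Gzmb, a granule protease that other cells also make, was called, beside 2.21% and 3.64% of all tested probes called higher. It rose by 1.85 log2 units in LFA (limma adjusted p = 0.00909) and 1.96 in NTL (adjusted p = 0.0029). The summed level of 6 platelet markers, cells that signal through Fcer1g as well, was 20.8 to 37.8 in control, 30.4 to 70.4 in LFA, and 38.2 to 49.5 in NTL. None was called in either, and 1 in each had an unadjusted p under 0.05, beside 24% and 23.5% of all tested probes. The sums did not reflect most of the list: 1 of 6 (Pf4, 0.81) was above control in LFA, with a median change of -0.52, and 2 of 6 in NTL, with a median of -0.32.

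Marco, a scavenger receptor that binds particles, had the largest change of the 11 macrophage markers, 3.91 log2 units in LFA (adjusted p = 0.000173) and 3.56 in NTL (adjusted p = 0.000197). Cd163, a marker of resident macrophages, changed by -1.10 in LFA (adjusted p = 0.404) and 0.03 in NTL (adjusted p = 0.989).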
